A study of Homo sapiens with 12 samples.

Results

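Chromatin accessibility was examined at 10 genes that encode enzymes acting on collagen after its chains are made: the lysyl oxidases LOX, LOXL1, LOXL2, LOXL3 and LOXL4, the prolyl 4-hydroxylase catalytic subunits P4HA1, P4HA2 and P4HA3, and the lysyl hydroxylases PLOD1 and PLOD2. The genes were chosen by name from 20033 protein-coding genes on the autosomes, X and Y of the RefSeq table (GRCh38.p14). A site was assigned to a gene when its summit lay inside the gene or within 10 kb of it, which gave 59 of the 188019 summits in the deposited list.

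The study asked how migration through collagen of rising density affects accessibility in HT1080 cells, an established human fibrosarcoma line. Gels of type I collagen from rat tail, at 0.3 mg/mL (low), 1.0 mg/mL (medium) or 1.7 mg/mL (high), held the cells for 48 hours, with 4 ATAC-seq libraries at each concentration and 12 in all. Every group, the low one included, received 20 µM GM6001, a broad inhibitor of matrix metalloproteinases, and no untreated group was analysed here. The peaks used came as 1 list, with no column that names a library or a concentration, so it was taken as pooled over all groups, and the values below carry no replicate spread and compare no concentrations. In such a pool, a site open in few cells and a site weakly open in many cannot be told apart.

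Prolyl 4-hydroxylases modify prolines along the collagen chain in the endoplasmic reticulum, which lets the triple helix stay folded at body temperature. Lysyl hydroxylases act on lysines in the same compartment, and the hydroxylysines they make set which cross-links can form later. Lysyl oxidases are secreted copper enzymes that oxidise lysines and hydroxylysines of assembled collagen and elastin, the step that starts covalent cross-linking and stiffens the matrix. Several of these genes, LOX, P4HA1, P4HA2, PLOD1 and PLOD2 among them, are textbook targets of hypoxia-inducible factors, whose binding site has the core ACGTG or GCGTG.

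Of the 10 genes, 8 matched the RefSeq promoter table (GRCh38.p14), with 11 listed starts; LOXL2 and P4HA3 did not. The 250 bases before the start are printed for the 5 genes in which that window held a deposited summit. LOX had 3 listed starts, and only the window before the outermost one held a summit and is printed. Deposited intervals also covered the other LOX windows, chr5:122077224-122077473 and chr5:122077175-122077424, with their summits elsewhere. The same held for the LOXL3 window chr2:74553943-74554192 and part of the P4HA2 window chr5:132227092-132227341. A window left out is therefore not shown to be closed. The printed windows are given 5′ to 3′ on the gene's strand, with every ACGTG or GCGTG, on either strand, in capitals. The windows are chr10:73096867-73097116 (minus strand) for P4HA1, chr1:11934467-11934716 (plus) for PLOD1, chr3:146161185-146161434 (minus) for PLOD2, chr5:122078260-122078509 (minus) for LOX and chr15:73926212-73926461 (plus) for LOXL1.
P4HA1: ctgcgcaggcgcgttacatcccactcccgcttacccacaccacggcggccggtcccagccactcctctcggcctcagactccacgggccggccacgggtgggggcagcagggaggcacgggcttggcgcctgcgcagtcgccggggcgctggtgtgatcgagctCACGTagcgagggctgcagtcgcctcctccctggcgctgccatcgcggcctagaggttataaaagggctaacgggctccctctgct
PLOD1: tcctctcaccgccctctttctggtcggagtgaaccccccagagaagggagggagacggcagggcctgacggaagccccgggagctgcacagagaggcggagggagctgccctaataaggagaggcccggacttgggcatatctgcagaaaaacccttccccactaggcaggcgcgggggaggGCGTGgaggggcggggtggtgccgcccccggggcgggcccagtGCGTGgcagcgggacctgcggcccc
PLOD2: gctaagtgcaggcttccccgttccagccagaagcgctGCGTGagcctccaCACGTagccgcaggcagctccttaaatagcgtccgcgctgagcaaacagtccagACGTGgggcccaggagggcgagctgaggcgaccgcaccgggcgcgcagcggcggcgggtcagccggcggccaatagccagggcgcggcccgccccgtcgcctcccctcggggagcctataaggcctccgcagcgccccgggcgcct
LOX: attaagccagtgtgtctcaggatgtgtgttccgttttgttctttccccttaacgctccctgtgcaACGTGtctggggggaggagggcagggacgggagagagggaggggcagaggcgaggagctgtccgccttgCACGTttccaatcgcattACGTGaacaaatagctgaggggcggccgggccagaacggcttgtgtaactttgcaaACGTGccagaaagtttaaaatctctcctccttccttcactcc
LOXL1: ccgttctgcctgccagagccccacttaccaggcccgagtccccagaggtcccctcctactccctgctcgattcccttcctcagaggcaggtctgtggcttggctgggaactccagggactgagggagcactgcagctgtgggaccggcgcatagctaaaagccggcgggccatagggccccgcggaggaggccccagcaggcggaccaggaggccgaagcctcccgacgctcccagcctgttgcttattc

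The summits fell 114 bases before the start in P4HA1, 37 in PLOD1, 35 in PLOD2, 157 in LOX and 11 in LOXL1. The hypoxia response element core was matched 4 times in the printed LOX window, 3 times in PLOD2, 2 times in PLOD1, 1 time in P4HA1 and not in LOXL1. Among windows not printed, it was matched 0 times in P4HA2 and in LOXL4, and 0 and 1 times in those of LOXL3. The other LOX windows, which overlap each other, held 2 each. In the printed LOX window the cores began 185, 116, 98 and 42 bases before the start, on both sides of the summit. Of 35116 promoter windows of the same length in the table, 43.2% held at least 1 such core on either strand, and 3.22% held 4 or more. The share with at least 1 was 60.4% among the 9885 windows that held a summit and 36.5% among those that did not. A core in a window with a summit is therefore common. The share with 4 or more was not computed for windows with a summit. A match describes letters in the window and does not show that a factor was bound.

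Base composition differed among the printed windows. The number of CG dinucleotides was 30 in PLOD2, 25 in P4HA1, 17 in PLOD1, 13 in LOX and 13 in LOXL1, against a median of 11 (quartiles 3 and 23) over all windows and a median of 23 over windows with a summit. LOXL4 had the most CG-rich window of the members, with 37 CG dinucleotides, 86.4% GC and 6 matches to the GC box GGGCGG (either strand), yet no summit lay in it. Of the 11 member windows, 5 matched GGGCGG (42.6% of all windows in the table) and 3 matched CCAAT (32.0%). The TATA box TATAAA was matched in 1 window, that of P4HA1 (10.7%), GGAATG, the core bound by TEAD factors, in 1 of LOXL3 (11.9%), and the AP-1 site TGANTCA in 0 (6.57%).

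Each summit has an enrichment, the authors' own value, which is the ratio of the fragments piled up there to the background around it. It also has a pileup, recovered from the enrichment and its p-value and taken here as the number of overlapping fragments. Parentheses give exact Poisson 95% intervals of the pileup, carried over to the enrichment. They cover counting error only and not the spread between libraries, and they take the background as known. Values with overlapping intervals were left unordered, although overlap is not a test of their difference. Over the whole list the median enrichment was 4.27 and the median pileup 101 fragments. The label was set beside marker genes: 6 of 10 mesenchymal marker genes had a summit within 1000 bp of a start, as did 1 of 6 epithelial, 2 of 4 blood and 0 of 3 endothelial markers, against 65.9% of coding genes. These counts neither separate mesenchymal markers from coding genes in general nor set the cell type.

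All 10 genes held at least 1 summit, as did 89.8% of protein-coding genes, so the count itself does not set them apart. The number per gene ranged from 2 in LOXL4 and P4HA1 to 13 in LOXL2, with a median of 5.5 against 3 for coding genes. Per 100 kb of gene and flanks the median was 8.39 for the members and 5.89 for coding genes. Of the 59 summits, 35 lay inside a gene and 24 outside, in 49 intervals of 255 to 2113 bp. Each of the 10 genes held at least 1 summit inside its own boundaries, as did 66.1% of coding genes. Exon boundaries were not used here, so "inside" covers exons and introns alike. Enrichments ran from 1.52 to 17.5, with a median of 5.02, and pileups from 35 to 3388 fragments, with a median of 218.

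**Figure D1:**
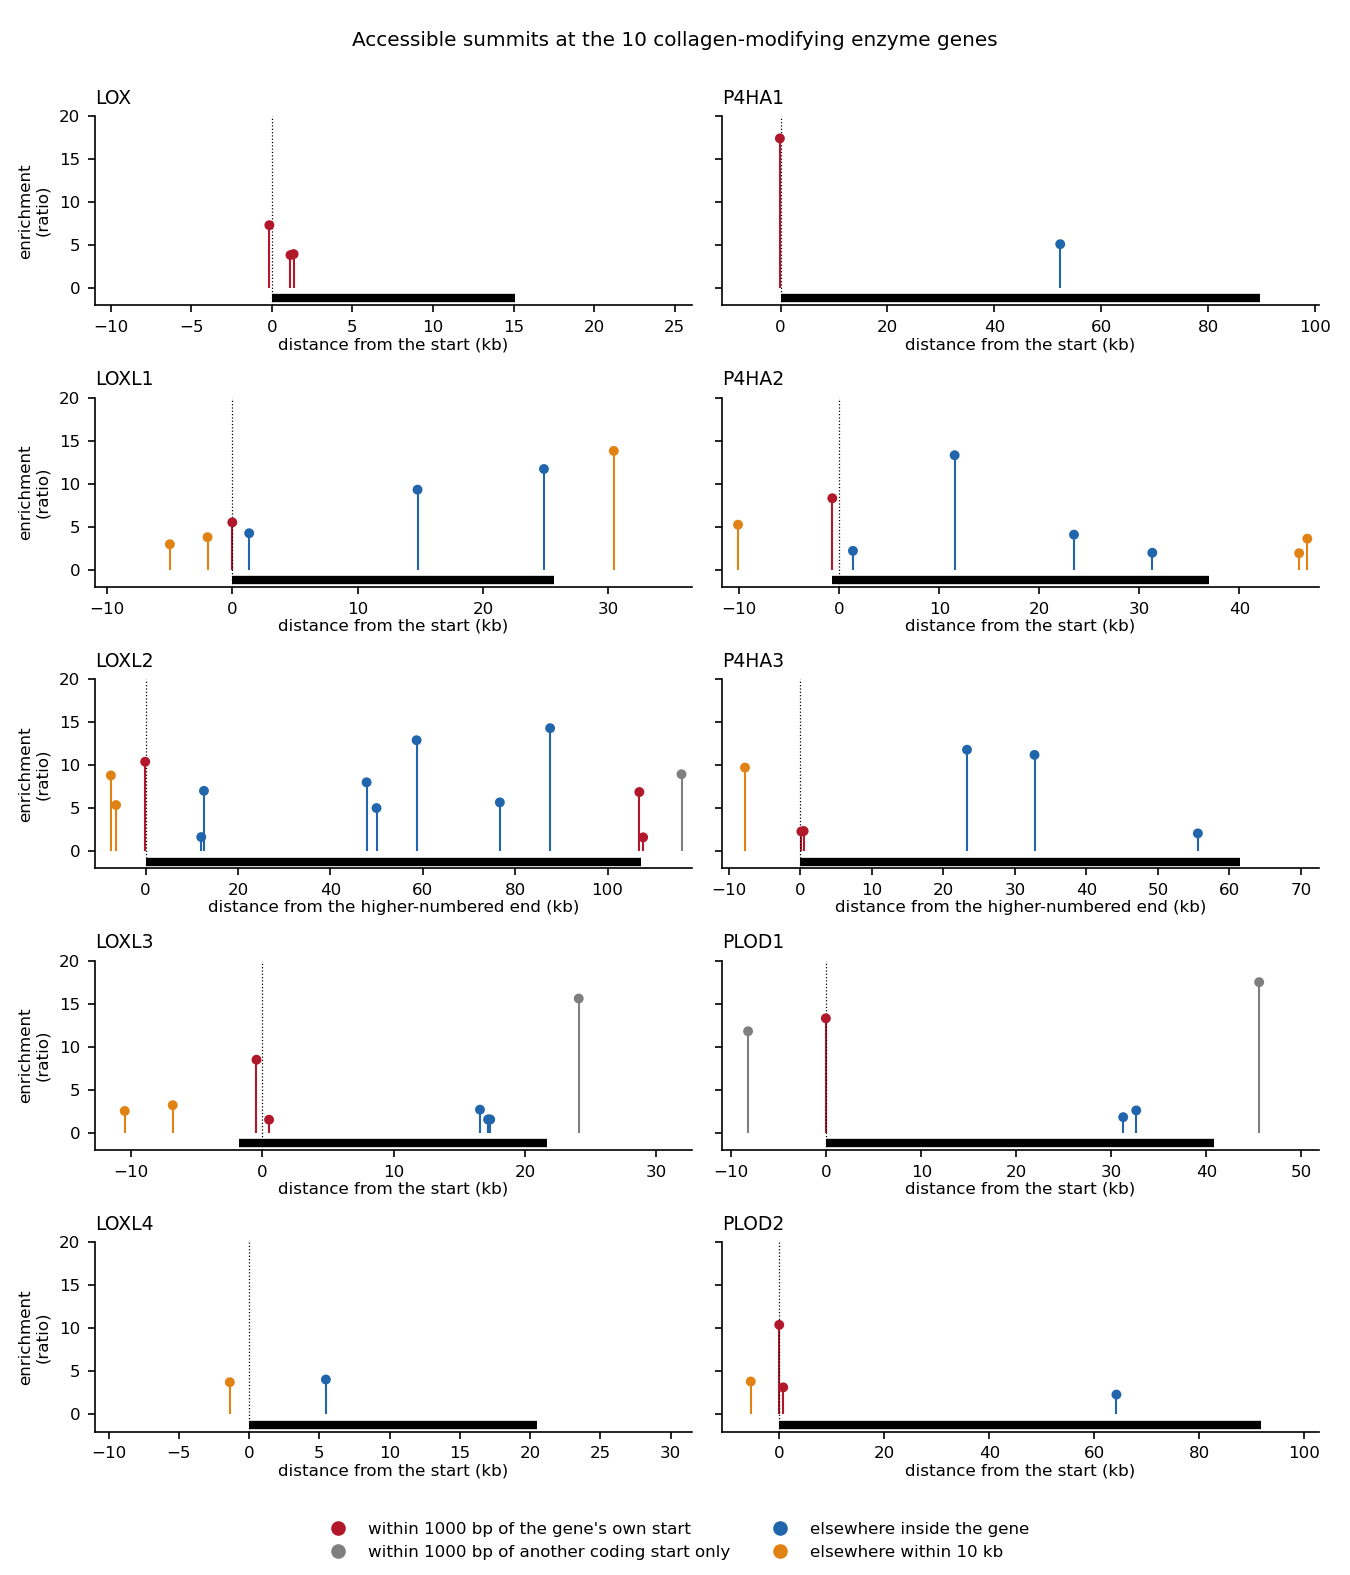
Enrichment (ratio) of each summit against its distance from the gene's start in kb, 1 panel per gene, with the gene as a black bar. Distances for LOXL2 and P4HA3 run from the higher-numbered gene end, because no start was listed for them, and both gene ends count there as an own start. P4HA1, PLOD1, PLOD2 and LOX have their highest own site at the start, whereas LOXL1, LOXL2, P4HA2 and P4HA3 have theirs inside or beyond the gene.

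A summit lay within 1000 bp of a start in 9 of 10 genes (for LOXL2 and P4HA3, of either end), against 65.9% of coding genes by the same rule. At a −log10 q of at least 50 the count was 8 of 10, against 56.1%. These start sites were of moderate height. Their highest enrichment per gene had a median of 8.49, compared with 11.9 (quartiles 7.25 and 14.8) over coding genes with such a summit, and 2 of the 9 genes, P4HA1 and PLOD1, were above that median. Over every summit assigned to a gene the order was different: the median of the highest enrichment was 13.6 for the members and 12.4 for coding genes, and 6 of 10 members were above the coding median. For PLOD1 and LOXL3, both above it, the highest summit lay within 1000 bp of another coding gene's start. Without summits near such starts, an alternative chosen after seeing the data, the member median was 12.6. The coding median was not recomputed under that rule. Only 3 members, P4HA1, PLOD2 and LOX, had their highest summit within 1000 bp of their own start.

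**Figure D2:**
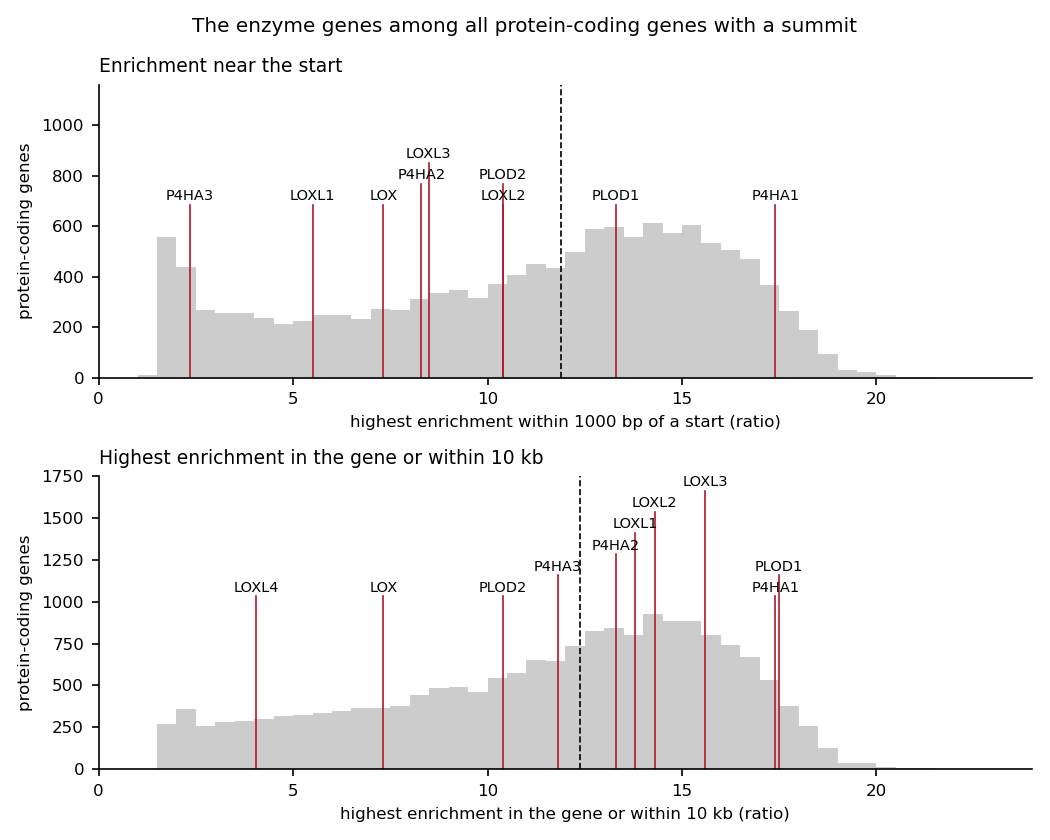
Histograms of the highest enrichment (ratio) of protein-coding genes within 1000 bp of a start (top) and in the gene or within 10 kb (bottom), with the members as red lines and the coding median as a dashed line. In the top panel 7 of the 9 members lie left of the median of 11.9, and in the bottom panel 6 of 10 lie right of the median of 12.4.

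The prolyl 4-hydroxylase genes held both the highest and the lowest value near a start among the 9 genes with one. The lowest, P4HA3, was measured at a gene end, because its start was not listed. P4HA1 encodes the main catalytic subunit. Its start on chromosome 10 had a summit at 73096980, in the interval chr10:73096174-73097237, with an enrichment of 17.4 (16.8 to 18.1) and a pileup of 2468 fragments (2372 to 2567). This was the highest start site of the 10 genes, and 95.1% of coding genes with a summit near a start had an enrichment no higher. Apart from it P4HA1 held a single summit in 89650 bp of gene, at 73044555, with an enrichment of 5.11 (4.20 to 6.16) and 108 fragments. P4HA1 thus had 1.82 summits per 100 kb of gene and flanks, against a median of 5.89 for coding genes.

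P4HA2, the catalytic subunit of a second isoform of the enzyme, had 8 summits, and the highest lay inside the gene. That summit, at 132215558 on chromosome 5 (interval chr5:132215231-132215838), was 11533 bp downstream of the listed start and had an enrichment of 13.3 (12.3 to 14.3) with 716 fragments (664.5 to 770.4). The site nearest the start had 8.30 (7.51 to 9.15) and 404 fragments (365.6 to 445.4). The intervals of the 2 sites do not overlap on either scale. The start site was 698 bp upstream of the listed start and 64 bp inside the higher-numbered end of the gene, so it lay closer to the gene's outer boundary than to the start in the promoter table. The other 6 summits had enrichments of 1.92 to 5.23.

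P4HA3 encodes the third catalytic subunit. Its only summits within 1000 bp of a gene end were 2 at the higher-numbered end on chromosome 11, with enrichments of 2.35 (1.75 to 3.09) and 2.30 (1.71 to 3.03) from 49 and 48 fragments, and an end of the antisense gene P4HA3-AS1 lay within 1000 bp of both. This was the lowest value near a start or end among the 9 genes that had one, and 6.92% of coding genes with such a summit were at or below it. Away from the ends, P4HA3 had summits inside the gene with enrichments of 11.8 (10.7 to 13.1) at 74288332 and 11.2 (10.2 to 12.3) at 74278890, from 400 and 428 fragments. Another lay 7744 bp beyond the higher-numbered end, at 74319384, with 9.72 (8.55 to 11.0) and 245 fragments. These 3 sites were far above the gene ends, and the 2 inside the gene were left unordered, since their intervals overlap.

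Both lysyl hydroxylase genes among the 10 members had an accessible start. PLOD3, another lysyl hydroxylase gene, is not a member and was named after its value was seen. It had 11.1 near a start, with 1261 fragments. PLOD1 encodes the enzyme that hydroxylates lysines in the helical part of collagen. Its start on chromosome 1 had a summit at 11934680 (interval chr1:11934340-11935150) with an enrichment of 13.3 (12.3 to 14.3) and 758 fragments (705.0 to 813.9). PLOD2 encodes the enzyme known for hydroxylating lysines in the telopeptides, the non-helical ends, which leads to the more stable cross-links of stiff tissue. Its start on chromosome 3 had a summit at 146161219 (interval chr3:146160289-146161603) with 10.4 (9.67 to 11.2) and 759 fragments (706.0 to 815.0). The pileups of these 2 starts were alike within counting error while their enrichments were not, and the local background was 56.2 fragments at PLOD1 and 72.1 at PLOD2.

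The interval at the PLOD2 start held a weaker summit 723 bp downstream of the start, with an enrichment of 3.14 and 228 fragments. The remaining PLOD2 summits had 3.82 (5457 bp upstream) and 2.30 (64205 bp downstream), the second from only 48 fragments. Inside PLOD1 the 2 summits had 1.82 and 2.60, from 43 and 63 fragments. The highest summit assigned to PLOD1, and to any of the 10 genes, was 4733 bp beyond the end of the gene, at 11980270, with 17.5 (16.9 to 18.1) and 3388 fragments. It lay 174 bp from the start of MFN2, the mitofusin 2 gene, and the PLOD1 summit 8222 bp upstream (enrichment 11.8) lay 68 bp from the start of KIAA2013. Without summits within 1000 bp of another coding start, an alternative chosen after seeing the data, the highest value of PLOD1 was that of its own start, 13.3.

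LOX, the founding lysyl oxidase, had 3 summits, all in 1 interval of 1931 bp at its start (chr5:122076749-122078679). The summit upstream of the outermost start, at 122078416, had an enrichment of 7.32 (6.59 to 8.11) and 363 fragments (326.6 to 402.3). The other 2 lay 69 and 263 bp downstream of the innermost of 3 listed starts, at 122077174, with 3.85 (3.33 to 4.44) and 3.96 (3.43 to 4.55), and could not be told apart. No other summit lay in the rest of the gene or within 10 kb. LOX was low among coding genes, with 20.4% of them at or below its highest enrichment. The gene SRFBP1 spans this interval and has an end 519 bp from the highest LOX summit. No start of SRFBP1 or of any other coding gene lay within 1000 bp of the 3 LOX summits. Position alone still cannot assign the fragments here to 1 gene.

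LOXL1, known for cross-linking elastin, showed the opposite arrangement: enrichment was low upstream of and around the start and highest past the end of the gene. The summit 11 bp before the start on chromosome 15, at 73926451, had 5.50 (5.09 to 5.94) with 646 fragments (597.1 to 697.8). Summits 4998 and 1989 bp upstream had 2.96 and 3.78, and another 1336 bp into the gene had 4.24. Further into the gene, 14778 and 24872 bp from the start, enrichments were 9.30 (8.51 to 10.1) and 11.7 (10.9 to 12.5). The highest, 13.8 (13.2 to 14.4) from 2105 fragments, was at 73956911 (interval chr15:73956522-73957501), 4775 bp beyond the gene's end, with no end of another gene within 1000 bp. The 4 summits from 4998 bp upstream to 1336 bp into the gene all lay over the antisense gene LOXL1-AS1.

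The local background at the LOXL1 start was 117 fragments. Among the other start sites it was 141 at P4HA1, which had the highest enrichment, 111 at LOXL3, 47.8 to 72.1 at P4HA2, LOX, LOXL2, PLOD1 and PLOD2, and 20.3 at P4HA3, which had the lowest. In pileup the LOXL1 start exceeded those of LOX and P4HA2, with no overlap of the intervals, although it was below both in enrichment. Among coding genes with a summit near a start, 18.6% were at or below LOXL1 in enrichment and 43.3% in pileup. Its place in the order therefore depended on the scale.

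**Figure D3:**
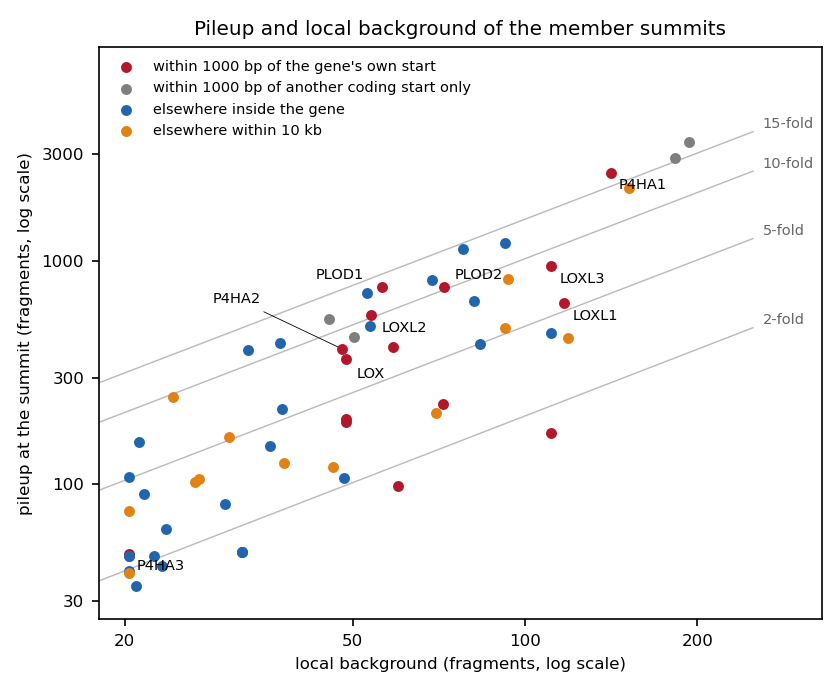
Pileup at each of the 59 summits against the local background, both in fragments on log scales, with grey lines of equal enrichment and gene names at the highest summit near each own start. The starts of P4HA1, LOXL1 and LOXL3 lie furthest right among the starts, with backgrounds of 141, 117 and 111 fragments, and P4HA3 lies at the genome-wide background of 20.3.

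LOXL2, an oxidase of basement membrane collagen widely studied in tumour invasion, had the most summits, 13 over a gene of 107224 bp on chromosome 8. Its strand was not in the tables used. The summit 69 bp beyond the higher-numbered end, at 23404189, had 10.4 (9.57 to 11.3) and 569 fragments. Summits at the lower-numbered end had 6.88 and 1.62, and both lay within 1000 bp of an end of R3HCC1, 959 and 141 bp away. A further summit, 8786 bp beyond that end with 8.95, lay 19 bp from the other end of R3HCC1. Higher than either end were 2 sites inside the gene, at 23316548 with 14.3 (13.4 to 15.1) and 1125 fragments, and at 23345446 with 12.9 (12.2 to 13.7) and 1202 fragments. These 2 were left unordered, because their intervals overlap and their order reverses in pileup. The second lay over the antisense gene LOXL2-AS1, as did summits with 8.01 and 5.02. Past the higher-numbered end, 1 interval of 1854 bp held summits with 8.81 and 5.37, 7492 and 6365 bp away.

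LOXL3, an oxidase of collagen and elastin, had 9 summits, and the strongest were shared with neighbouring genes. The highest, at 74529860 on chromosome 2 with 15.6 (15.0 to 16.1) and 2870 fragments, was 73 bp from a start of HTRA2 and 154 bp from a start of AUP1. It was 2398 bp beyond the end of LOXL3. The site at the LOXL3 start, at 74554388 with 8.49 (7.95 to 9.04) and 947 fragments, lay 446 bp upstream of one listed LOXL3 start and 332 bp from a start of DOK1. No summit lay within 1000 bp of the other listed LOXL3 start, 3902 bp from the nearest one. Without the summits near other coding starts the highest LOXL3 enrichment was 3.21 (2.68 to 3.82), 6821 bp upstream of the start and inside the neighbouring gene M1AP. Inside LOXL3, 3 summits of a single interval had 1.55 each from 50 fragments.

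LOXL4 was the member without a summit within 1000 bp of its start. Its 2 summits lay 1380 bp upstream, at 98269574 on chromosome 10 with an enrichment of 3.74 (3.06 to 4.54) and 102 fragments, and 5458 bp into the gene, at 98262736 with 4.05 (3.42 to 4.75) and 148 fragments. Their enrichments do not differ beyond counting error. LOXL4 had the lowest maximum of the 10 genes, and 8.29% of coding genes with a summit were at or below it. A site below the list's limit, a −log10 q of 1.30, would not appear, so no summit near the start does not mean closed chromatin.

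By the highest summit near a start (for LOXL2 and P4HA3, near either end), the order was P4HA1, PLOD1, PLOD2 and LOXL2, LOXL3, P4HA2, LOX, LOXL1 and P4HA3. PLOD2 and LOXL2 had overlapping intervals, as did LOXL3 with P4HA2 and P4HA2 with LOX, and those neighbours were left unordered. Every other neighbouring pair in that order was separated by more than counting error. In pileup the order was P4HA1, LOXL3, PLOD2, PLOD1, LOXL1, LOXL2, P4HA2, LOX and P4HA3, with overlapping intervals for PLOD2 and PLOD1, for LOXL1 and LOXL2, and for P4HA2 and LOX. P4HA1 was first and P4HA3 last on both scales.

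**Figure D4:**
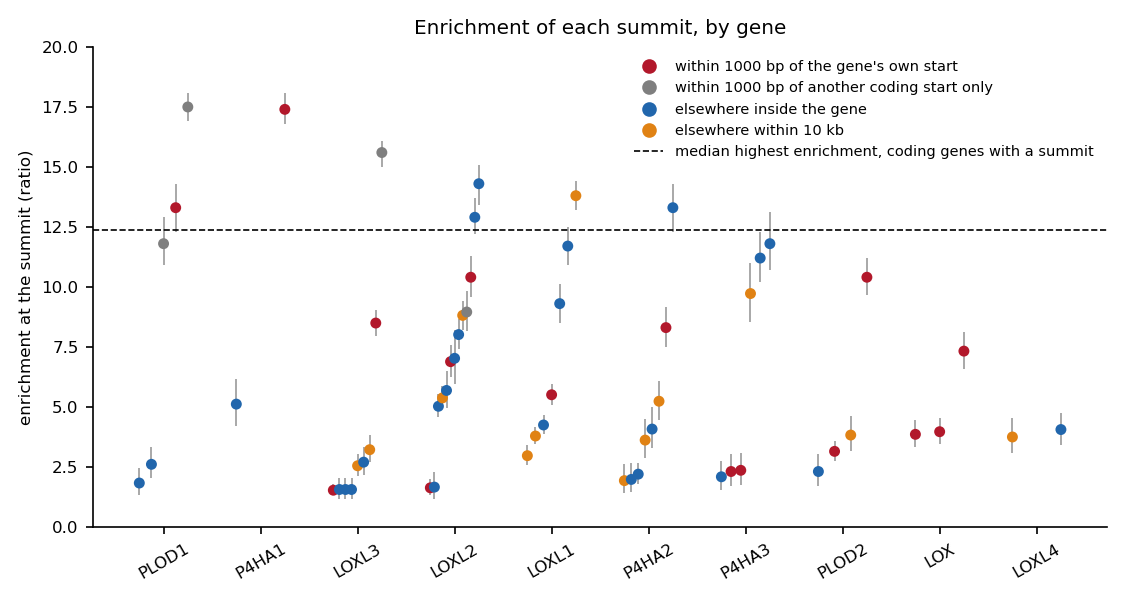
Enrichment (ratio) of all 59 summits by gene, ordered by the highest value, with exact Poisson 95% intervals as grey bars and the median highest enrichment of coding genes (12.4) as a dashed line. The highest points of PLOD1 and LOXL3 are grey, at starts of other genes, while those of LOXL2, P4HA2 and P4HA3 are blue, inside the gene.

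By position, the 16 summits within 1000 bp of an own start or end had a median enrichment of 6.19 and ran from 1.52 to 17.4. The 26 summits elsewhere inside the genes had a median of 4.16, up to 14.3, and the 13 elsewhere within 10 kb had 3.78, up to 13.8. Another 4 lay only near the start or end of another coding gene, with a median of 13.7. The classes overlap over most of their range. The local background was at the genome-wide value of 20.3 fragments for 7 of the 59 summits (11.9%) and above it for 52. Of all summits in the list, whether near a gene or not, 53.0% were at that value. The share among summits assigned to coding genes by the same rule was not computed. The difference is therefore not shown to be particular to these genes. The last summits inside the 10 kb window were 3 of P4HA2, 9041, 9366 and 9857 bp beyond the gene, with enrichments of 1.92, 5.23 and 3.61. The first outside were 1 of P4HA2 at 10609 bp (2.2) and 2 of LOXL3 at 11202 and 12372 bp (2.34 and 4.99).

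The other genes of collagen biosynthesis were described from a list of 24 chosen by role, from the partner subunit of prolyl 4-hydroxylase to chaperones and procollagen proteases. All 24 held a summit (89.8% of coding genes did), and 19 held one within 1000 bp of a start (65.9%). The median of the highest enrichment was 13.2 over these genes, against 13.6 for the 10 members and 12.4 for coding genes. Whether the highest summits of this list lay at starts of other genes was not examined. Near a start the median was 9.37, against 8.49 and 11.9. The highest were PPIB, a prolyl isomerase of the endoplasmic reticulum, with 18.3, MIA3, which helps export procollagen, with 17.6, and P3H1, a prolyl 3-hydroxylase, with 16.0.

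The lowest in that list were TLL1, a procollagen proteinase, with 2.63, SERPINH1, the collagen chaperone HSP47, with 5.35, and P3H3, of a related hydroxylase complex, with 6.0. Named after their values were seen, the 5 genes without a summit near a start were PCOLCE, ADAMTS2, ADAMTS3, ADAMTS14 and MIA2. All 3 procollagen N-proteinase genes of the ADAMTS family were among them, with their highest enrichments, 7.41, 14.4 and 13.1, elsewhere. P4HB, which encodes the subunit that joins the P4HA proteins, also named after its value was seen, had 13.8 at its start with 5023 fragments, more than any summit of the 10 members.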

How the data were processed

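ATAC-seq libraries of HT1080 cells were described by 1 deposited peak list of 10 columns. Per the submitters' processing notes, the tools were fastp 0.20.0, Bowtie2 2.4.3, deepTools 3.5.0, SAMtools and MACS2 2.2.7.1 and the build was hg38; their options, filters and the use of a control are not given in the sources used here. The labels' protocols record up to 25000 cells per library, 11 PCR cycles and paired reads of 150 bp. The depth per library is unknown.

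The deposited enrichment is a ratio at the summit, by the layout of the columns. Both the deposited p-value and the deposited q-value are on the −log10 scale, with a lowest −log10 q of 1.30. The deposited score equalled the −log10 q times 10, truncated, in 99.8% of lines.

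From the enrichment and p, the pileup and background were solved jointly, with 1 added to each before their ratio gives the enrichment and a Poisson upper tail gives p (Python 3.11.15, scipy 1.17.1). No label states this model. The pileup came out whole, within 0.05, in 99.96% of 188019 lines. It was recovered in 100% of 4604 simulated summits, which were drawn from this same model. That simulation therefore checks the solving and not the model. Simulated summits with a p too small to compute were left out, so it did not cover the strongest member summits. PCR duplicates were not separable, so intervals cover counting error only. Whether the pileup counts fragments or single reads is not stated. If mates or duplicates were counted separately, the intervals are too narrow.

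Summits were assigned to RefSeq genes (GRCh38.p14). Starts came from the RefSeq promoter table, which covered 79.1% of coding genes; either gene end stood in for the rest. Percentages of coding genes at or below a value are descriptions. The members and gene lists were chosen with earlier results of these data known. All 10 members are named; of other genes, the rule names those with an end within 1000 bp of a member's highest summit and the 3 highest and 3 lowest of the biosynthesis list. Any further gene was named after its values were seen. The planned edgeR test between concentrations was not run, because the list holds no counts per library. Alternatives were the window, the threshold, the interval length and the measure of strength.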

Additional observations from a re-analysis of the deposited data

How the results depend on the processing

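All 10 genes held a summit inside the gene, within 5 kb and within 20 kb, at a −log10 q of at least 10, in intervals of at most 10 kb, by any overlap of the interval, and without summits near other coding starts (chosen after seeing the data). The limit of 10 kb on intervals could change nothing, since the longest member interval was 2113 bp. The 20 kb window and the overlap rule could not lose a gene. At a −log10 q of at least 50, 9 did and LOXL4 dropped out. Counting only summits inside the genes left 35 of the 59 summits and lowered the median highest enrichment from 13.6 to 6.80, because the highest start summits of LOX, P4HA1, PLOD1 and PLOD2 and the highest summits of LOXL1 and LOXL3 lie outside the annotated gene. A −log10 q of at least 50 left 33 summits. In pileup the median of the highest summit was 980.5 fragments, against 778.5 for coding genes with a summit. This median is on another scale than 13.6, so it was counted as changed by rule and not by a comparison. The other 29 of 33 alternative counts and medians stayed within 1.5 times the value given, or for medians within the order-statistic interval of the 10 genes. The number of genes with a summit near a start was 9 and ranged from 8 to 10: a window of 500 bp lost P4HA2, a −log10 q of at least 10 or 50 lost P4HA3, gene ends in place of starts lost LOXL3, and a window of 2500 bp gained LOXL4. Of 49 alternative values for single genes, 14 fell outside the counting interval. All 14 were lower, a direction set in advance, because every such alternative except the 20 kb window kept only part of the summits. No paired analysis was possible because the list holds no values per library, and for the same reason leaving out replicates and other count models were not run. Depth per library is unknown.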
